A study of Abies pinsapo with 24 samples.

Results

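Aquaporins are the membrane channels through which much of the water between plant cells, and small neutral solutes, moves. In the count table of Abies pinsapo (Spanish fir) they were taken as every feature whose protein domain text holds PF00230, the major intrinsic protein domain, or whose best protein hit in another species is named aquaporin. This choice of features used no measured value and took 38 of the 51046 features. The domain and the name both held for 31 of them, the domain alone for 3 and the name alone for 4.

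Plant aquaporins fall into subfamilies that sit in different membranes. Plasma membrane intrinsic proteins (PIPs) carry water across the cell's outer membrane, and in maize PIP1 proteins reach that membrane when they pair with PIP2 proteins, which conduct water strongly on their own. Tonoplast intrinsic proteins (TIPs) sit in the vacuolar membrane, nodulin 26-like intrinsic proteins (NIPs) carry glycerol, boric acid and metalloids as well as water, and small basic intrinsic proteins (SIPs) are found in the endoplasmic reticulum. In tree roots and leaves, PIPs and TIPs are studied as a regulated part of the path of water from soil to air, which changes with drought, cold and season.

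The trees grew in Sierra de las Nieves, were aged 30 to 50 years, and gave RNA from both organs, needle and root. Yunquera is the lower limit of the forest (1100 to 1200 m) and Ronda the upper limit (1700 to 1800 m). The autumn material dates from September 2022 and the spring material from May 2023. Organ, site and season gave 8 groups of 3 libraries, 24 in all, with trees 1 to 3 from Yunquera and trees 4 to 6 from Ronda; the sampling notes give 6 trees in one place and a larger random sample in another, and a number is taken here to name 1 tree. The labels name no treatment and do not say whether material was pooled. A kit was used for root RNA and a different protocol for needle RNA, so that organ cannot be told apart from extraction, nor season from the year of harvest.

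Total counts ran from 13355301 to 27427263 per library, so that 3 counts, the floor that a count of 0 allows, were worth 0.109 to 0.225 counts per 1000000 counts (CPM). These floors cover counting error only and use unscaled totals. Other CPM values use scaled totals, on which 3 counts in the spring roots of tree 4 were 0.0998 CPM. Chlorophyll-binding and Rubisco small subunit transcripts, the green tissue markers, made up 1.73% to 4.47% of all counts in each of 11 needle libraries, against 0.0310% to 0.0821% in 11 root ones. The needle library of tree 6 in spring had 0.0275% and the root library of tree 5 in spring had 2.48%, against their labels. Both were set aside for this organ signal by the rule that chose the aquaporins. Every value below is over the other 22 libraries unless it says otherwise. The only root marker feature with counts, a nitrate transporter hit, took 0.00160% to 0.0164% of counts in needles and at most 0.00119% in roots, so it gave no check of the root label. No pair of replicates in a group agreed within sampling noise.

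The 38 aquaporin features comprised 6 PIP1, 12 PIP2, 2 TIP, 5 NIP and 3 SIP features by best hit, no XIP, and 10 whose best hit was in a yeast, another fungus, an animal or a slime mould. Names in the text are these best hits, not names established in fir, and 4 of the measured features share the best hit PIP2-8. Of the 38, 28 had at least 1 count and 10 had none in any library. All 8 members that overlap another feature on the same reference sequence were among those at 0, as were 98.2% of the 20124 overlapping features of the whole table, against 8.53% of the 30922 that overlap none. A filter on low counts left 24 members, 21 with plant hits and 3 with yeast hits, and in roots alone the 21 plant members. Among the 14 left out, 4 had between 1 and 26 counts in total. Of the 21 plant members, 9 had a complete open reading frame of 260 to 302 residues, 9 a shorter one of 105 to 222 residues, and 3 no gene model, which are called here by their reference sequence (ap_3866, ap_5173 and ap_10097). Reads can be shared between near-identical copies, so separate values of the PIP features, and of a pair of features that share the best hit NIP5-1, are uncertain.

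PIPs made up most of the aquaporin transcript pool in both organs. Levels of different features are compared only as CPM per kb of feature length, and their sum over all members was 2092 ± 333 in autumn needles (SD, n = 6), 2858 ± 299 in spring needles (n = 5), 3635 ± 1178 in autumn roots (n = 6) and 3153 ± 933 in spring roots (n = 5). PIP1 features held 36.1% ± 5.96 of that sum in needles (SD, n = 11) and 44.0% ± 6.89 in roots (n = 11). PIP2 features held 50.3% ± 5.65 in needles and 45.2% ± 7.00 in roots. The remaining shares were small: TIPs held 8.41% ± 4.84 in needles and 5.46% ± 1.73 in roots, NIPs 1.58% ± 0.432 and 2.62% ± 1.43, and the single SIP with counts 3.40% ± 0.497 and 2.65% ± 0.753. In these bulk samples, fewer cells of a type and less RNA per cell cannot be told apart.

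**Figure D1:**
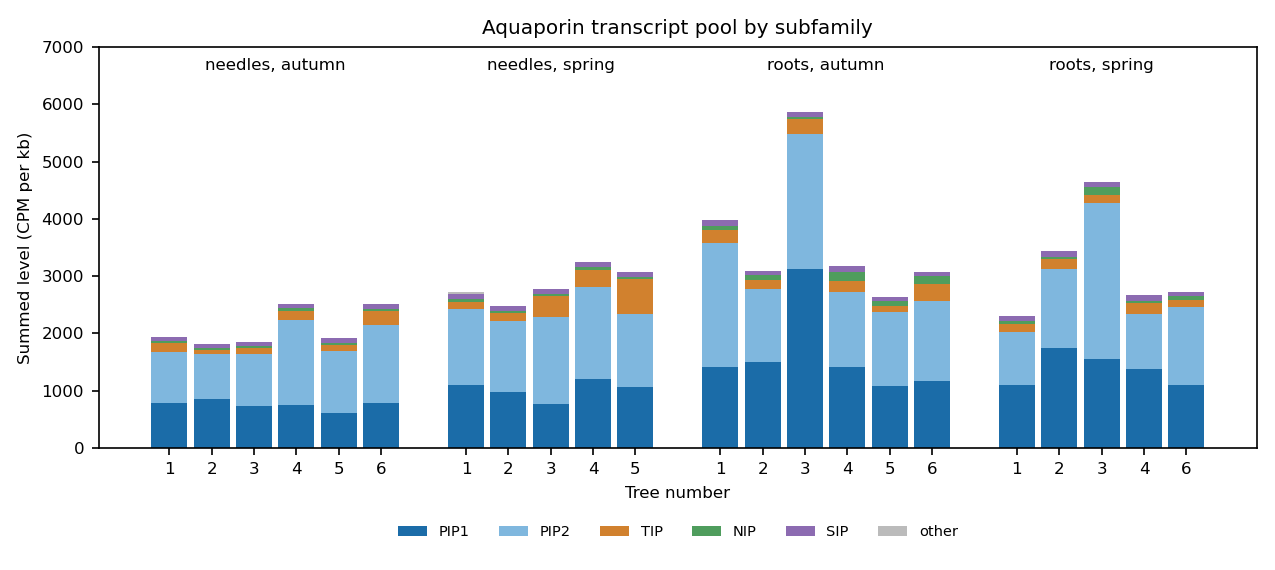
Summed level of all aquaporin features (CPM per kb) in each of 22 libraries, stacked by subfamily, with the tree number under each bar. PIP1 and PIP2 fill most of every bar, and the root libraries of tree 3 stand highest in both seasons (5867 in autumn and 4650 in spring).

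One PIP1 led the pool. Gene_3332 (best hit PIP1-2, reference sequence ap_2706, positions 1 to 1868) stood at 794 ± 448 CPM per kb over the 22 libraries and was the highest member in 20 of them. The exceptions were the spring needles and spring roots of tree 3, where Gene_3542, a PIP2-8 hit on ap_2862, was higher. After it came Gene_3542 with 440.3 ± 258, Gene_3516 (PIP2-8, on ap_2841) with 368 ± 206, Gene_2961 (PIP1-4, on ap_2427) with 225 ± 91.0 and Gene_3903 (PIP2-1, on ap_3125) with 202 ± 129.9 CPM per kb. TIP1-1 (ap_10097, positions 551 to 1936) with 192 ± 116, Gene_52233 (PIP2-2) with 146 ± 76.7, Gene_5645 (PIP1-2) with 128 ± 43.7, Gene_14482 (PIP2-4) with 106 ± 59.9 and the SIP1-2 hit Gene_3464 with 83.0 ± 12 completed the 10 most abundant. Neighbours in this order overlapped over the 22 libraries. Within autumn needles, Gene_3332 (399 to 638 CPM per kb) stood above the next member by mean, Gene_3903 (263 to 376), in every library. The range of Gene_3332 there overlapped those of Gene_3542 (200 to 443) and ap_5173 (8.88 to 407). Within each autumn needle library Gene_3332 was still the highest member. Of these 10, the SIP varied least, from 62.8 to 105 CPM per kb over both organs, seasons and sites.

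**Figure D2:**
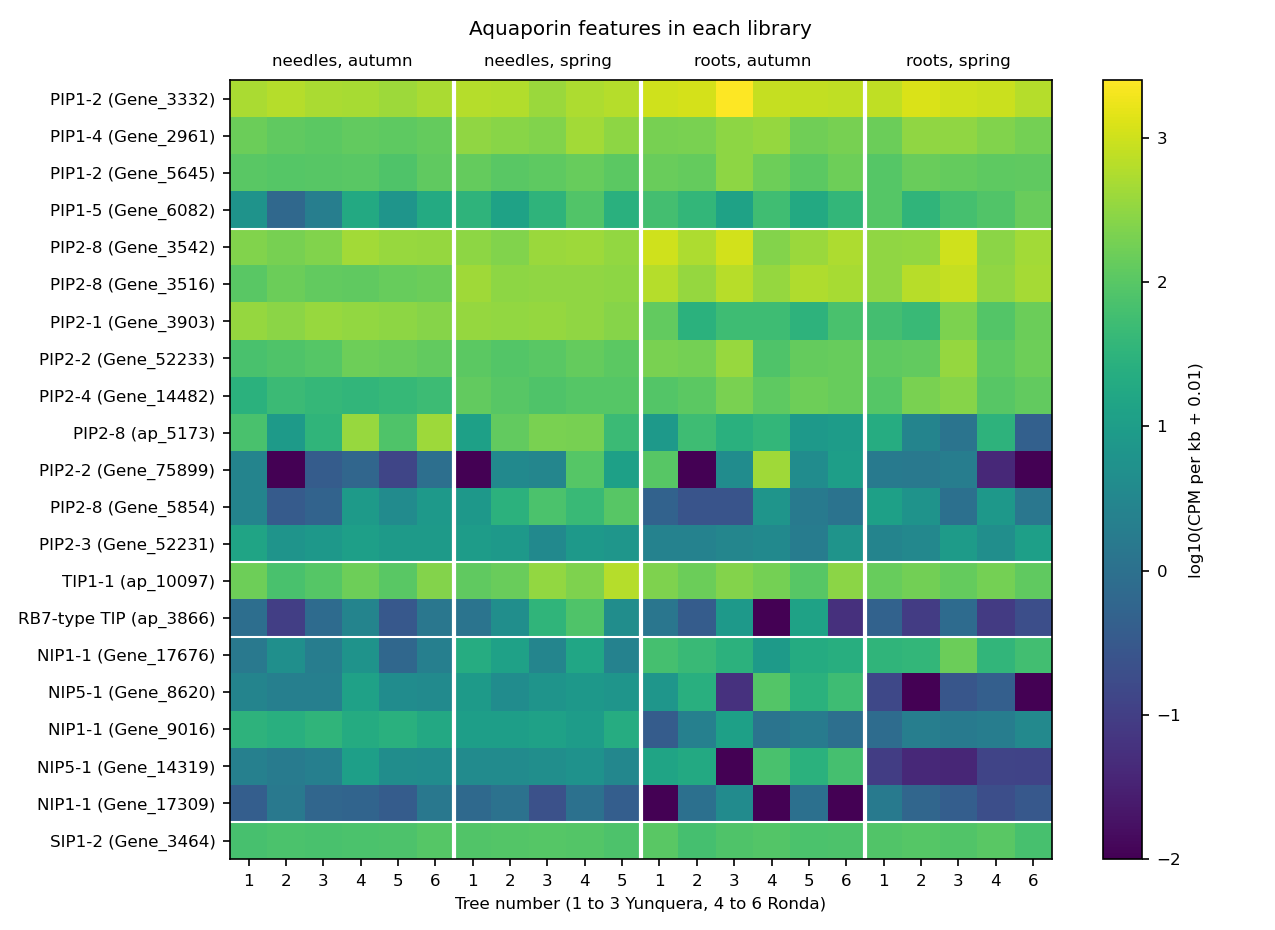
Level of the 21 plant aquaporin features in 22 libraries as log10 of CPM per kb plus 0.01, with features in rows by subfamily and libraries in columns by organ, season and tree. The upper PIP rows and the SIP row are bright in all columns, while the NIP5-1 pair (Gene_8620 and Gene_14319) is dark in the 5 spring root columns and in the autumn roots of tree 3.

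The needle and root aquaporin sets differed, and the differences depended on season. In autumn 14 of 24 members passed the test (edgeR's quasi-likelihood test on the counts of the whole table, adjusted p under 0.05 by Benjamini-Hochberg over all features tested), where 32.3% of all features passed. Higher in needles were 3 of the 14, beside 18.8% of all features, and higher in roots were 11, beside 13.4%, and the median log2 difference, needles minus roots, was -0.70 over the members and 0.18 over all features. In spring 11 members passed, beside 28.2% of all features, with 9 higher in needles (19.3% of all features) and 2 higher in roots (8.94%). The medians were 0.73 over the members and 0.11 over all features. These figures include 3 members with yeast hits that had no counts in the root libraries used, so only their needle side could be higher. Over the 21 plant members, 8 were higher in needles and 2 in roots in spring. Their medians were -0.90 in autumn and 0.43 in spring. The shift of the median of all features in autumn was 0.19 under another scaling, which left the counts over the 24 members as they were. With the set-aside libraries put back as labelled, 13 members passed in autumn and 1 in spring, the NIP5-1 hit Gene_14319. Leaving out 1 library gave 13 to 15 members in autumn, and in spring 6 without the roots of tree 4, 7 without the roots of tree 6 and 7 without the needles of tree 5.

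**Figure D3:**
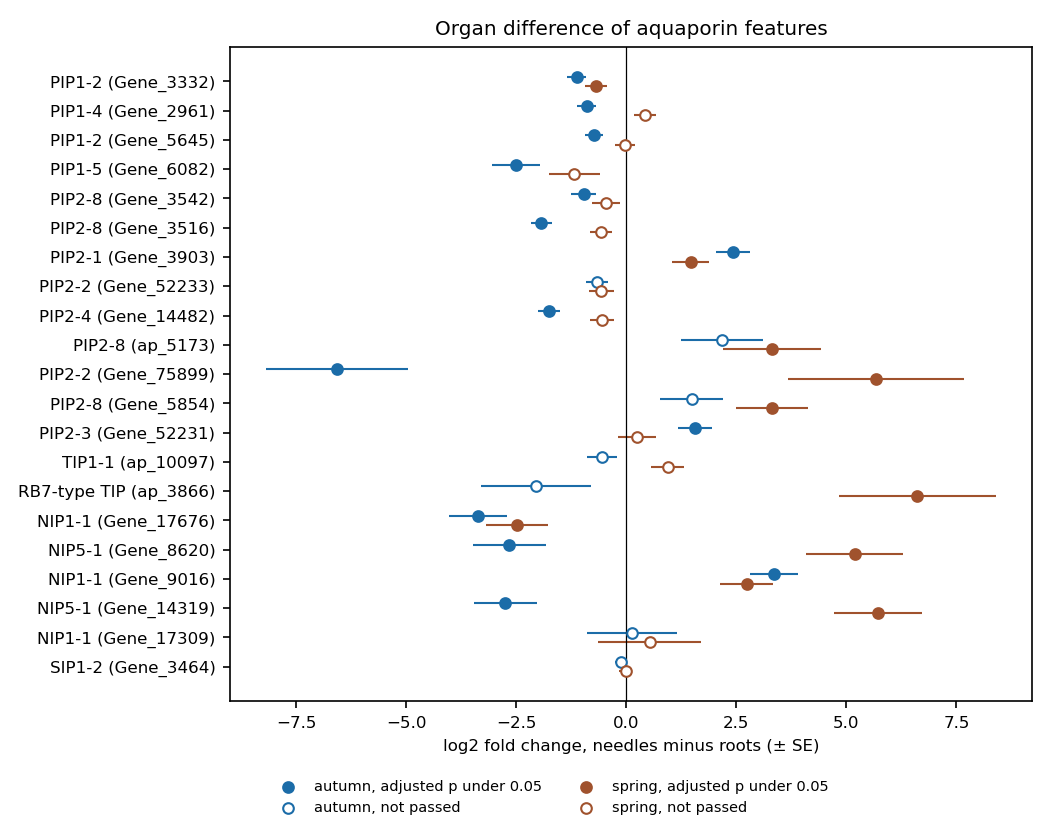
Log2 fold change with its standard error, needles minus roots, for the 21 plant aquaporin features in autumn (blue) and spring (red-brown), with filled points where the adjusted p was under 0.05. Most PIP points lie left of 0 in autumn, and the NIP5-1 pair and Gene_75899 lie left of 0 in autumn and right of 0 in spring.

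All 4 tested PIP1 features were higher in roots than in needles in autumn. Gene_3332 ran from 745 to 1191 CPM in autumn needles (median 957, n = 6) and from 1452 to 4676 in autumn roots (median 1731, n = 6). The groups did not overlap, the highest root value was tree 3, and the log2 difference was -1.13 ± 0.22 (SE, adjusted p = 0.000837). In spring its needle values were 1165, 1107, 710.2, 1008 and 1154 CPM in trees 1 to 5 and its root values 1399, 2297, 1928, 1760.4 and 1192 CPM in trees 1, 2, 3, 4 and 6. All 5 root values again lay above all needle values, with a smaller difference of -0.68 ± 0.25 (adjusted p = 0.0483). That spring call had an adjusted p of 0.114 with the tree as a block and was lost (0.0642 to 0.153) without the needles of tree 2, 3, 4 or 5 or the roots of tree 2, 3 or 4.

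The other PIP1 features passed the organ test in autumn and not in spring. Gene_2961 (PIP1-4) ran from 163 to 232 CPM in autumn needles (median 187) and from 251 to 522 in autumn roots (median 303), without overlap, and differed by -0.90 ± 0.22 (adjusted p = 0.00461). Gene_5645 (PIP1-2) ran from 340.1 to 495 CPM in autumn needles and from 460.5 to 1242 in autumn roots, with a slight overlap and a difference of -0.73 ± 0.20 (adjusted p = 0.00925). Gene_6082 (PIP1-5, on ap_4586), the least abundant of the 4, ran from 0.993 to 30.2 CPM in autumn needles (median 9.27) and from 18.9 to 91.6 in autumn roots (median 55.9). It was lower in the needles of all 6 trees, by -2.51 ± 0.54 (adjusted p = 0.00171). In spring these 3 did not pass, with log2 differences of 0.43 ± 0.25, -0.02 ± 0.22 and -1.18 ± 0.58 and adjusted p-values of 0.207, 0.979 and 0.137. Whether the organ difference itself changed with season was tested separately, and of these 3 it passed for Gene_2961.

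PIP2 features split by organ. Gene_3516 (PIP2-8) ran from 198 to 296 CPM in autumn needles (median 256) and from 674 to 1258 in autumn roots (median 1011). Not one needle library reached the lowest root library, and the difference was -1.93 ± 0.24 (adjusted p = 6.56e-06). Gene_14482 (PIP2-4, on ap_9881) ran from 49.8 to 89.1 CPM in autumn needles and from 162 to 365 in autumn roots, also without overlap (-1.76 ± 0.25, adjusted p = 3.11e-05). The most abundant PIP2, Gene_3542, was at 264 to 586 CPM in autumn needles and 334 to 1399 in autumn roots. Its groups overlapped, 5 of 6 trees had the lower value in needles, and the difference was -0.97 ± 0.29 (adjusted p = 0.0156). In spring these 3 gave -0.57 ± 0.25, -0.56 ± 0.27 and -0.45 ± 0.32 and did not pass (adjusted p = 0.103, 0.133 and 0.319), though without the spring roots of tree 1 Gene_3516 (0.024) and Gene_14482 (0.0474) did.

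Gene_3903, a PIP2-1 hit, was the one abundant PIP with the needle side high in both seasons. It ran from 374 to 535 CPM in autumn needles (median 454, n = 6) and from 39.3 to 178 in autumn roots (median 76.0, n = 6). In spring the needles had 489.9, 479, 498, 446 and 371 CPM in trees 1 to 5 and the roots 85.3, 66.4, 302, 128 and 222 in trees 1, 2, 3, 4 and 6. No root library reached a needle library in either season, and the difference was 2.42 ± 0.38 in autumn (adjusted p = 0.000104) and 1.46 ± 0.42 in spring (adjusted p = 0.0141). Without the spring roots of tree 4 the spring value was 1.24 and its adjusted p 0.0858. Gene_52231 (PIP2-3, on ap_48693) was low in both organs, at 9.0 to 20.6 CPM in autumn needles and 2.66 to 8.96 in autumn roots. These ranges did not meet, with a difference of 1.56 ± 0.39 (adjusted p = 0.00511), and in spring the difference was 0.24 ± 0.42 (adjusted p = 0.733).

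The remaining PIP2 features varied widely between trees. Gene_5854 (PIP2-8, on ap_4439) had 14.4, 54.1, 138, 86.0 and 189 CPM in the spring needles of trees 1 to 5 and 21.6, 11.2, 1.86, 14.0 and 2.53 in the spring roots of trees 1, 2, 3, 4 and 6. The needles of tree 1 fell within the root range, and the spring difference was 3.31 ± 0.83 (adjusted p = 0.00615). In autumn it was 1.49 ± 0.72 (adjusted p = 0.125). The feature ap_5173 (PIP2-8, positions 1 to 1230) had 14.5, 156, 247, 242 and 58.9 CPM in spring needles and 27.1, 3.38, 1.49, 38.7 and 0.555 in spring roots, in the same order of trees. Needles were higher in 3 of the 4 trees with both organs, with a difference of 3.31 ± 1.11 (adjusted p = 0.0336). This call was lost without the spring needles of tree 2, 3 or 4 or the spring roots of tree 2, 3 or 6 (adjusted p 0.0524 to 0.116), and without the spring roots of tree 4 its value was 5.82.

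Gene_75899 (PIP2-2, on ap_80156, with a reading frame of 105 residues) was higher in roots in autumn and higher in needles in spring. It had 105, 0, 4.35, 432, 4.32 and 10.8 CPM in the autumn roots of trees 1 to 6, beside 2.83, 0, 0.376, 0.602, 0.129 and 0.952 in the needles of the same trees. In spring it had 0, 3.83, 3.05, 98.0 and 11.8 CPM in the needles of trees 1 to 5 and 1.66, 1.59, 2.05, 0.0333 and 0 in the roots of trees 1, 2, 3, 4 and 6. Trees 1 and 4 carried most of the autumn root signal and tree 4 most of the spring needle signal, and both comparisons overlapped. The difference was -6.57 ± 1.60 in autumn (adjusted p = 0.00439) and 5.67 ± 2.00 in spring (adjusted p = 0.0427). DESeq2 gave no adjusted p for either. The spring call was lost with all libraries as labelled (0.59, adjusted p = 0.866) and when any 1 of 9 of the 10 spring libraries was left out (adjusted p 0.0527 to 0.158). Gene_52233 (PIP2-2) passed in neither season, with differences of -0.66 ± 0.26 and -0.57 ± 0.29 (adjusted p = 0.0578 and 0.153). In autumn it passed with the tree as a block (-0.61, adjusted p = 0.0447), by DESeq2 (0.0402) and without the autumn roots of tree 2 (0.0418) or tree 4 (0.0376).

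NIPs stood on both sides of the organ difference. Of the 3 measured NIP1-1 hits, Gene_9016 (on ap_6455) belonged to needles: it ran from 54.2 to 99.1 CPM in autumn needles (median 76.1) and from 1.10 to 34.3 in autumn roots (median 4.37). In spring it had 32.1, 30.8, 36.8, 28.4 and 65.3 CPM in the needles of trees 1 to 5 and 2.40, 6.09, 4.61, 5.72 and 10.4 in the roots of trees 1, 2, 3, 4 and 6. The organs did not overlap in either season, with differences of 3.36 ± 0.55 in autumn (adjusted p = 0.000137) and 2.74 ± 0.60 in spring (adjusted p = 0.00243). Gene_17676 (on ap_12050) stood the other way, at 1.03 to 9.79 CPM in autumn needles (median 3.34) and 14.2 to 105 in autumn roots (median 44.4). In spring its needles had 36.3, 19.9, 4.80, 26.6 and 4.09 CPM and its roots 57.3, 62.8, 254, 59.2 and 97.4, in the same order of trees. Again no library of one organ reached the other, and the difference was -3.36 ± 0.66 in autumn (adjusted p = 0.000783) and -2.48 ± 0.71 in spring (adjusted p = 0.0147, and 0.084 without the spring needles of tree 5). The third, Gene_17309, stayed at or below 6.52 CPM in every library and passed no comparison.

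The pair with the best hit NIP5-1, the boric acid channel of Arabidopsis roots, changed sides between the seasons. Gene_8620 (on ap_6206) had 10.6, 39.5, 0.0749, 139.6, 44.5 and 80.2 CPM in the autumn roots of trees 1 to 6 and 3.27 to 18.7 in autumn needles (median 5.04). Gene_14319 (on ap_9777) had 23.9, 31.9, 0, 114, 47.1 and 106 CPM in the same autumn roots and 2.86 to 18.5 in autumn needles (median 5.31). In 5 of 6 trees both were higher in roots, and in tree 3 both were near 0 in roots. The autumn differences were -2.66 ± 0.82 for Gene_8620 (adjusted p = 0.0195) and -2.75 ± 0.71 for Gene_14319 (adjusted p = 0.00671). The first was lost without the autumn needles of tree 5 or 6 or the autumn roots of tree 2 (adjusted p = 0.0559, 0.0554 and 0.0806). In spring roots, Gene_8620 had 0.212, 0, 0.419, 0.665 and 0 CPM and Gene_14319 0.141, 0.0511, 0.0465, 0.200 and 0.185 in trees 1, 2, 3, 4 and 6. In counts these were 6, 0, 9, 20 and 0 reads of Gene_8620 and 4, 1, 1, 6 and 3 reads of Gene_14319. The spring needles of trees 1 to 5 held 13.5, 6.62, 9.71, 11.6 and 10.1 CPM of Gene_8620 and 6.71, 6.52, 7.62, 9.12 and 5.27 of Gene_14319, and no spring root library came near them. The spring differences were 5.19 ± 1.10 (adjusted p = 0.00179) and 5.72 ± 1.01 (adjusted p = 0.000365), and without the spring roots of tree 4 that of Gene_8620 was 8.09. The counts of the pair ran close together, with a ratio of 0.442 to 2.02 (median 1.08) over the 16 libraries with at least 20 counts of each, and reads shared between them cannot be told apart from separate expression.

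TIP1-1 and the SIP did not pass the organ test in either season, and the other TIP passed it in spring. The TIP1-1 hit ap_10097 ran from 88.2 to 316 CPM in autumn needles and from 126 to 372 in autumn roots, and its organ differences of -0.56 ± 0.34 in autumn and 0.94 ± 0.38 in spring did not pass (adjusted p = 0.229 and 0.0778), while without the spring needles of tree 4 the second did (0.0381). The RB7-type TIP ap_3866 (positions 5 to 1286), whose best hit is a tobacco gene known from roots, had 1.54, 6.00, 44.0, 105 and 5.75 CPM in the spring needles of trees 1 to 5. It had 0.636, 0.102, 0.977, 0.0998 and 0.247 CPM in the spring roots of trees 1, 2, 3, 4 and 6. All needle values were higher, and the difference was 6.61 ± 1.77 (adjusted p = 0.00975), lost without the spring roots of tree 4 or tree 6 (adjusted p = 0.0725 and 0.0601). In autumn it was -2.05 ± 1.24 (adjusted p = 0.225). The SIP1-2 hit Gene_3464 ran from 116 to 165 CPM in autumn needles (median 128) and from 111 to 181 in autumn roots (median 140.4). In spring it had 154, 156, 169, 158 and 139 CPM in the needles of trees 1 to 5 and 154, 169, 154, 186 and 120.1 in the roots of trees 1, 2, 3, 4 and 6. Organs and seasons overlapped, with differences of -0.12 ± 0.14 in autumn and -0.02 ± 0.16 in spring (adjusted p = 0.573 and 0.98).

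Several of the spring calls were lost when the set-aside libraries were put back as labelled. The adjusted p was then 0.0506 for Gene_3903, 0.0536 for Gene_8620, 0.081 for ap_5173 and 0.102 for ap_3866. It was 0.116 for Gene_17676, 0.127 for Gene_3332, 0.151 for Gene_9016 and 0.294 for Gene_5854. In autumn, Gene_8620 had an adjusted p of 0.0674 in that fit. Over both seasons, 7 members passed in each: Gene_3332, Gene_3903, Gene_9016 and Gene_17676 in the same direction, and Gene_8620, Gene_14319 and Gene_75899 in opposite directions.

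In needles, 6 of 24 aquaporin features rose from autumn to spring, 1 fell and 17 did not pass, beside 15.3% of all features that passed in either direction, 8.79% that rose and 6.49% that fell. By subfamily, 2 of 4 PIP1 features, 3 of 9 PIP2 and 1 of 2 TIPs rose, 1 of 5 NIPs fell, and the SIP did not pass. The median log2 change, spring minus autumn, was 0.91 over the 24 members and 0.03 over all features. Of the 24, 3 have yeast hits, and over the 21 plant members the median was 0.23. Without 1 library at a time 5 to 8 members passed, and 5 passed with the tree as a block.

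**Figure D4:**
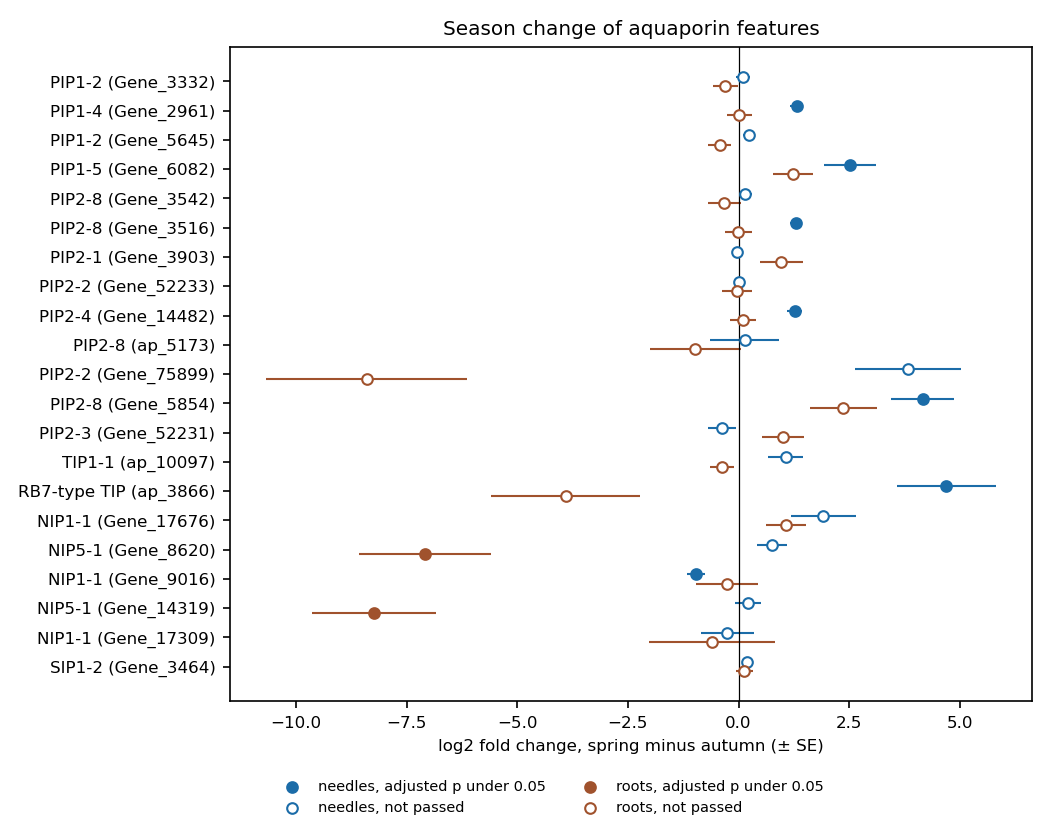
Log2 fold change with its standard error, spring minus autumn, for the 21 plant aquaporin features in needles (blue) and roots (red-brown), with filled points where the adjusted p was under 0.05. The filled needle points lie right of 0 except for NIP1-1 (Gene_9016), and the filled root points are the NIP5-1 pair, left of 0.

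The clearest rises were in 3 abundant PIPs. Gene_3516 (PIP2-8) went from 198 to 296 CPM over the 6 autumn needle libraries to 812, 585, 631, 614 and 596 CPM in the spring needles of trees 1 to 5. All spring values lay above all autumn values, and the change was 1.31 ± 0.14 on the log2 scale (adjusted p = 0.000537). Gene_2961 (PIP1-4) went from 163 to 232 CPM in autumn to 471, 409.6, 355, 659 and 463 CPM in spring, again without overlap (1.31 ± 0.15, adjusted p = 0.000811). Gene_14482 (PIP2-4) went from 49.8 to 89.1 CPM in autumn to 228, 179, 149, 168 and 168 CPM in spring. It rose in 5 of 5 trees, without overlap, by 1.26 ± 0.17 (adjusted p = 0.00174). These 3 passed in every fit with 1 library left out and with the tree as a block.

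Rises of 3 members with low autumn levels were larger and less even. Gene_5854 (PIP2-8) had 4.99, 0.643, 0.967, 16.3, 7.41 and 14.9 CPM in the autumn needles of trees 1 to 6, beside the spring values of 14.4 to 189 given above. It was higher in spring in 5 of 5 trees, by 4.16 ± 0.71 (adjusted p = 0.00561), and the adjusted p was 0.0746 with the tree as a block. Gene_6082 (PIP1-5) had 8.73, 0.993, 2.95, 28.2, 9.82 and 30.2 CPM in autumn and 48.3, 19.2, 48.0, 129.9 and 39.2 in the spring needles of trees 1 to 5. Again 5 of 5 trees rose while the groups overlapped (2.51 ± 0.59, adjusted p = 0.0211), and the call was lost without the autumn needles of tree 3 or the spring needles of tree 4 (0.0592 and 0.0899). The RB7-type TIP ap_3866 had 1.14, 0.117, 0.967, 3.45, 0.388 and 1.73 CPM in autumn and 1.54 to 105 in spring. It rose in 5 of 5 trees, by 4.69 ± 1.11 (adjusted p = 0.0221), with an adjusted p of 0.062 with the tree as a block. That call was lost without the autumn needles of tree 3 (0.0597) or tree 6 (0.0606), or the spring needles of tree 4 (0.112, with a change of 3.06).

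The member that fell was the needle NIP1-1 hit, Gene_9016. It had 89.4, 74.1, 99.1, 63.0, 78.0 and 54.2 CPM in the autumn needles of trees 1 to 6 and 28.4 to 65.3 in spring. It was lower in spring in 5 of 5 trees, with a log2 change of -0.96 ± 0.21 (adjusted p = 0.0162), and the groups overlapped through the spring needles of tree 5. With the set-aside libraries as labelled the adjusted p was 0.163. The 3 PIPs with the highest levels per kb in autumn needles did not pass: the change was 0.10 ± 0.15 for Gene_3332, 0.15 ± 0.15 for Gene_3542 and -0.04 ± 0.12 for Gene_3903 (adjusted p = 0.73, 0.57 and 0.87). In the spring needles of trees 1 to 5, Gene_3542 had 396, 307, 507, 529 and 437 CPM and Gene_5645 had 551, 434, 468, 577 and 447, both overlapping autumn. TIP1-1 (ap_10097) had 152, 183, 424, 288 and 785 CPM in spring needles and 88.2 to 316 in autumn needles. It was higher in spring in 4 of 5 trees and did not pass (1.07 ± 0.40, adjusted p = 0.105). TIP1-1 did pass by DESeq2 (adjusted p = 0.0301) and with the tree as a block without both needle libraries of tree 1 (0.0284).

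In roots, the NIP5-1 pair fell. Of the 21 members tested by edgeR, 2 fell and none rose, beside 5.54% of all features that passed and 3.13% that fell. At an unadjusted p under 0.05, 7 members passed, beside 22.4% of all features. DESeq2 called 4, the pair, ap_3866 as lower and Gene_5854 as higher. Gene_5854 (PIP2-8) had 0.924, 0.465, 0.450, 12.1, 3.11 and 2.08 CPM in the autumn roots of trees 1 to 6 and 21.6, 11.2, 1.86, 14.0 and 2.53 in the spring roots of trees 1, 2, 3, 4 and 6. It was higher in spring in 5 of 5 trees, with overlap, and the change was 2.37 ± 0.75 (adjusted p = 0.0965 by edgeR and 0.0126 by DESeq2). Over the 6 autumn root libraries Gene_14319 had 5783 counts, and over the 5 spring root libraries it had 15. Gene_8620 had 5676 counts in autumn and 35 in spring. Both were lower in spring in 4 of 5 trees, and tree 3, where both were near 0 in autumn, was the exception. The log2 changes were -8.24 ± 1.39 for Gene_14319 (adjusted p = 0.0127) and -7.09 ± 1.50 for Gene_8620 (adjusted p = 0.0256), and their size depends on the few spring counts. For Gene_14319 the call was lost without the spring roots of tree 4 (0.067) or tree 6 (0.0655). For Gene_8620 it was lost with the tree as a block (0.0845) and without the autumn roots of tree 4 or 6 or the spring roots of tree 1, 2, 4 or 6 (0.0507 to 0.0993).

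Abundant root PIPs did not pass between seasons. In the spring roots of trees 1, 2, 3, 4 and 6, Gene_3516 had 615, 1288, 1663, 624 and 898 CPM and Gene_3542 had 413, 438, 1371, 387 and 599. Gene_2961 had 227, 491, 472, 359 and 282 CPM and Gene_14482 had 172, 367, 469, 177 and 225 in the same trees. All 4 overlapped their autumn root ranges given above. Gene_5645 had 403, 619, 562, 478 and 496 CPM and Gene_52233 had 188, 209, 585, 197 and 275, against autumn ranges of 460.5 to 1242 and 135 to 618. TIP1-1 (ap_10097) had 181, 229, 172, 232 and 150.1 CPM, within its autumn range. Gene_3332 had 2196 ± 1242 CPM in autumn roots (SD, n = 6) and 1715 ± 436 in spring roots (n = 5), a change of -0.30 ± 0.28 (adjusted p = 0.582). Gene_3516 had 973 ± 256 and 1018 ± 453 (adjusted p = 1), Gene_3542 had 831 ± 436 and 641 ± 416 (adjusted p = 0.674), and Gene_2961 had 356 ± 111 and 366 ± 115 CPM (adjusted p = 0.983). The library of tree 3 was the highest or second highest for Gene_3332, Gene_3516 and Gene_3542 in both seasons. Gene_75899 had a wide change of -8.40 ± 2.27 that did not pass (adjusted p = 0.0619). It passed without the autumn roots of tree 2, where it was at 0 (0.037), and with no filter on low counts (0.049).

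The season change differed between organs for 6 members, all in the direction of more rise, or less fall, in needles. This contrast is the change in needles minus the change in roots, and 3.62% of all features passed it, 2.69% in this direction. Abundant PIPs among them were Gene_3516 (1.36 ± 0.34, adjusted p = 0.0356) and Gene_2961 (1.33 ± 0.33, adjusted p = 0.033), which rose in needles, while root values went both ways between trees. The NIP5-1 pair gave 7.84 ± 1.37 for Gene_8620 (adjusted p = 0.00384) and 8.47 ± 1.24 for Gene_14319 (adjusted p = 0.00125). Both stayed past the threshold in each of the 22 fits that omit 1 library. The others were ap_3866 (8.67 ± 2.13, adjusted p = 0.031) and Gene_75899 (12.24 ± 2.63, adjusted p = 0.0148). For Gene_75899 DESeq2 gave no adjusted p, and as labelled its value was 7.07 (adjusted p = 0.189). DESeq2 also called Gene_14482 (1.17, adjusted p = 0.027) and ap_10097 (1.46, adjusted p = 0.0484). Gene_14482 passed by edgeR without the autumn roots of tree 1 (0.0464) or the spring roots of tree 3 (0.0347).

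**Figure D5:**
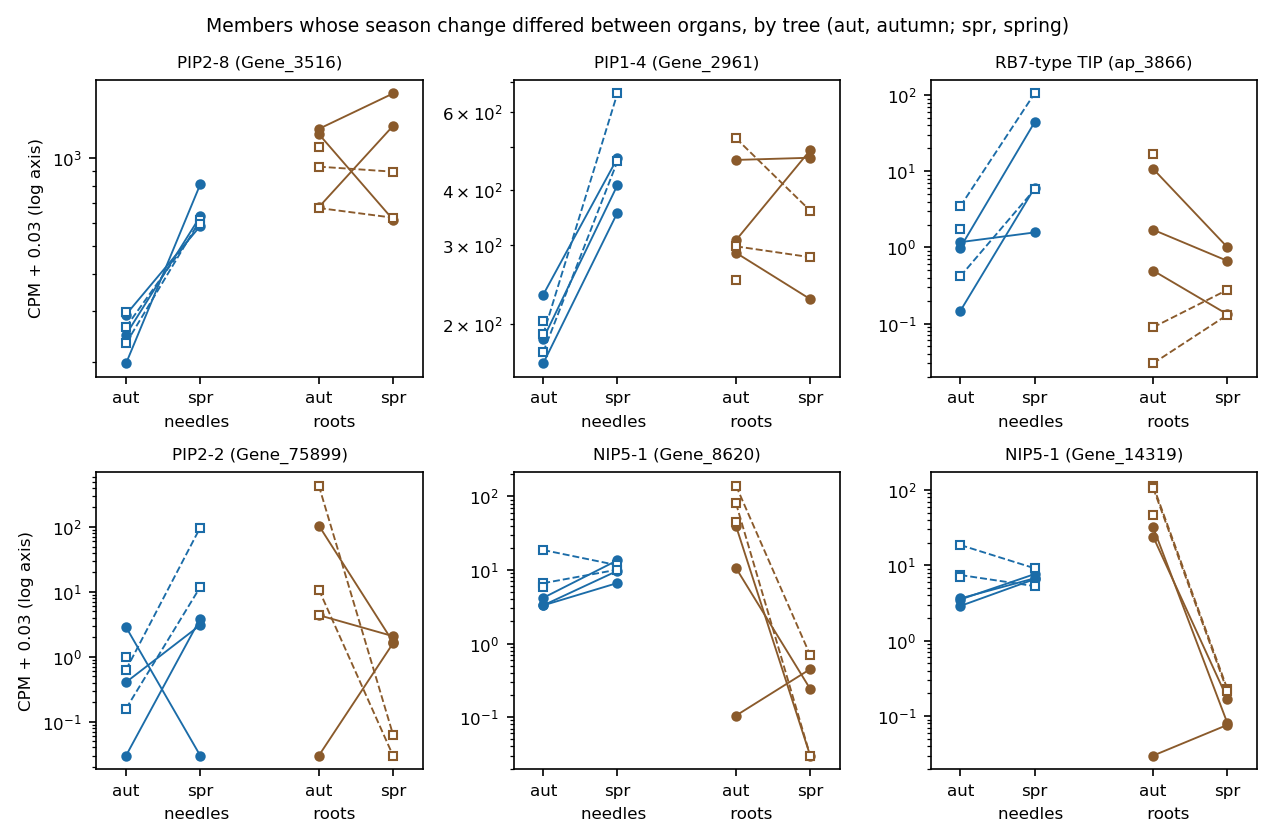
CPM plus 0.03 on a log axis in autumn and spring for the 6 members whose season change differed between organs, with needles in blue and roots in brown. Filled circles with solid lines are trees 1 to 3 (Yunquera), open squares with dashed lines are trees 4 to 6 (Ronda), and lines join a tree's libraries. Among trees with both seasons, both NIP5-1 features drop in roots in all but tree 3, and Gene_3516 and Gene_2961 rise in needles in every one.

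Some of these calls rest on single libraries. With the tree as a block 3 of the 6 passed, and the adjusted p was 0.0592 for Gene_3516, 0.0512 for Gene_2961 and 0.149 for ap_3866. Gene_3516 was lost when any 1 of 14 libraries was left out (adjusted p 0.0518 to 0.105), Gene_2961 with any 1 of 12 (0.0518 to 0.126) and ap_3866 with any 1 of 10 (0.0507 to 0.356). For ap_3866 the value without the autumn roots of tree 5, which held 16.6 CPM, was 4.93. Gene_75899 was lost without the spring roots of tree 4 (0.0776) or tree 6 (0.0873). With the set-aside libraries as labelled, 2 members passed, Gene_3516 (adjusted p = 0.0382) and Gene_14319 (adjusted p = 0.0356). Without 1 library the count ran from 2 (without the spring roots of tree 4) to 7, and it was 3 without the autumn needles of tree 3, 5 or 6, the spring needles of tree 4 or the spring roots of tree 6.

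Within sites, the needle rises of the 3 abundant PIPs were found at both. At Yunquera 5 members rose and 1 fell, beside 8.42% of all features, 4.72% that rose and 3.70% that fell. Gene_3516 rose by 1.44 ± 0.18 (adjusted p = 0.00319), Gene_14482 by 1.41 ± 0.23 (0.00778), Gene_2961 by 1.07 ± 0.20 (0.0139), Gene_5854 by 4.93 ± 1.02 (0.0207) and Gene_6082 by 3.15 ± 0.84 (0.0494), and Gene_9016 changed by -1.42 ± 0.28 (0.0177). At Ronda, where spring needles had 2 libraries, 3 rose, beside 2.51% of all features that passed and 1.21% that rose: Gene_2961 by 1.56 ± 0.22 (adjusted p = 0.00794), Gene_3516 by 1.17 ± 0.20 (0.018) and Gene_14482 by 1.12 ± 0.24 (0.0474). In each site's test the 3 rose in every tree with both seasons, without overlap. With the tree as a block no member passed at Ronda (adjusted p 0.0515, 0.163 and 0.202), and at Yunquera Gene_14482 (0.0576) and Gene_5854 (0.131) were lost.

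Leaving out 1 library moved these site counts. At Yunquera 2 members passed without the autumn needles of tree 3 and 3 without those of tree 2. At Ronda 1 passed without the autumn needles of tree 4 or 5 or the spring needles of tree 5, and none without the spring needles of tree 4. Gene_14482 at Ronda was lost without any 1 of the 5 libraries (0.0865 to 0.22), Gene_3516 at Ronda without tree 4 or 5 of either season (0.061 to 0.129) and Gene_2961 at Ronda without the spring needles of tree 4 (0.0725). At Yunquera, Gene_2961, Gene_5854 and Gene_6082 were each lost without the autumn needles of tree 2 or tree 3. Gene_6082 was also lost without any 1 of the 3 spring libraries there (0.0654 to 0.101), and Gene_9016 without the autumn needles of tree 3 (0.0729) or the spring needles of tree 2 (0.0603).

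No member's season change differed between the sites in needles or in roots, as none of the features tested passed (0% of all features in both). At an unadjusted p under 0.05, 3 members passed in needles, beside 6.66% of all features, and 1 in roots, beside 4.01%, and DESeq2 called 0 in both. In roots, no member passed for season within Yunquera (1.18% of all features; at an unadjusted p under 0.05, 3 members and 17.7% of all features) or within Ronda (0.135%; 4 members and 11.3%). DESeq2 called 3 and 2 of them, and edgeR called 1 at Yunquera without the autumn roots of tree 3.

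Between the sites, 1 member passed. Gene_52233 (PIP2-2, on ap_48694) had 118, 139 and 156 CPM in the autumn needles of Yunquera and 273, 246 and 217 in those of Ronda. The sites did not overlap, and Ronda was higher by 0.84 ± 0.15 on the log2 scale (adjusted p = 0.0293), beside 1.71% of all features that passed and 1.10% that were higher at Ronda. The call was lost without any 1 of the 6 autumn needle libraries (adjusted p 0.0626 to 0.109) and with the set-aside libraries as labelled (0.101), while DESeq2 called 7 members. In spring needles its values were 180.1, 152 and 178 CPM at Yunquera and 227 and 188 at Ronda, and no member passed there (0% of all features, 1 member and 10.5% of all features had an unadjusted p under 0.05, and DESeq2 called 0). In autumn roots no member passed (0.0324% of all features), while 3 members and 11.5% of all features had an unadjusted p under 0.05 and DESeq2 called 1. In spring roots no member passed (0% of all features), 0 members and 3.04% of all features had an unadjusted p under 0.05, and DESeq2 called 0.

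The 3 measured members with yeast hits, named for the water and glycerol channels AQY2 and AQY3 of Saccharomyces cerevisiae, were at 0 in all 11 root libraries. Gene_63597 (Aquaporin-2) had 52.1 CPM in the spring needles of tree 1, 3.16 and 3.45 CPM in the autumn and spring needles of tree 2, and at most 0.533 elsewhere. Gene_48939 (AQY3) was counted in tree 2 alone, with 1.29 CPM in autumn and 6.14 in spring needles. Features whose best hits lie in filamentous fungi took 0.365% of the counts in the spring needles of tree 1 and 0.370% and 0.248% in the autumn and spring needles of tree 2, against 0.163% to 0.210% in the other needle libraries. Gene_63597 and Gene_26339 were highest in the same 3 libraries, and the part of fungal RNA in these members' values was not tested. Gene_26339 (AQY3) reached 2.16 CPM at most, with 30, 20, 10, 0 and 14 counts in the spring needles of trees 1 to 5. It passed the filter through needles alone, so its spring organ call (adjusted p = 0.026), 1 of the 9 counted as higher in needles, is given with no fold. That call was lost with the tree as a block (0.217) and without the spring needles of tree 5 or the spring roots of tree 4 or tree 6 (adjusted p 0.0825 to 1).

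Other transport genes of the same membranes, listed by name, were counted beside them for the change from autumn to spring in needles. Of the 6 tested plasma membrane proton pumps, which energise transport into the cell, 1 rose and 1 fell, with a median log2 change of -0.20. Gene_63257 (ATPase 8) changed by 6.70 ± 0.94 (adjusted p = 0.0105) and Gene_5941 (ATPase 11) by -0.53 ± 0.12 (adjusted p = 0.0194). The background for all 3 lists was the same 8.79% of all features that rose and 6.49% that fell. Of 25 vacuolar proton pump features, none rose and 3 fell (median -0.02): the pyrophosphate-energised pumps ap_54673 (-2.24 ± 0.32, adjusted p = 0.00271) and Gene_5657 (-0.67 ± 0.11, adjusted p = 0.00432), and Gene_4097, a V-type subunit B (-0.53 ± 0.10, adjusted p = 0.00789). Of 17 potassium channels and transporters none rose and 3 fell (median -0.19), with KOR1 (Gene_39815) at -1.11 ± 0.19 (adjusted p = 0.00636). In season by organ, where 6 aquaporins and 3.62% of all features passed, none of the 6, 25 and 19 tested in these lists did. In roots the 3 lists held 1 call for season, Two-pore potassium channel 1 (Gene_17271), which fell by 0.85 ± 0.19 (adjusted p = 0.0324). Of all features in roots, 5.54% passed and 3.13% fell.

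In the set-aside libraries the aquaporins also stood apart from the labels. In the library labelled needles of tree 6 in spring, 8 of 24 members lay within the root range alone, 4 within the needle range alone, 10 within both and 2 within neither. It had 152 CPM of Gene_3903 and 2.68 of Gene_9016, both below the lowest needle library, and 0.141 of Gene_14319, as in spring roots. In the library labelled roots of tree 5 in spring, 9 members lay within the needle range alone, 1 within the root range alone, 12 within both and 2 within neither. Its Gene_9016 value was 68.4 CPM and its Gene_14319 value 5.29, as in needles, and TIP1-1 (ap_10097), at 1100.2 CPM, was its highest member and above every other library. Of the 9 within the needle range alone, Gene_63597 and Gene_26339 have yeast hits. They held 3 and 8 counts, against 0 in every root library used. In the library labelled needles, all 3 measured members with yeast hits were at 0, within both ranges. Only these values are given for the pair of libraries, and which material each library held was not tested.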

How the data were processed

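The submitters' processing notes name CASAVA, the aligner HISAT2 and the read counter featureCounts. The version, the settings and the genome reference of each step were not given in the sources used here. As deposited by the authors, the data were 1 table of raw counts for 51046 features in 24 libraries with best hits and Pfam text. Directional and non-directional libraries were made, and which library is which is not stated, so reads of overlapping antisense features cannot be told apart. Libraries were grouped by organ, site and season. CPM were computed on totals scaled by TMM. Counts were tested with edgeR 4.0.16 (R 4.3.3), quasi-likelihood, after a filter (filterByExpr, minimum count 10, total 15), with Benjamini-Hochberg adjustment over all features at 0.05, in 1 fit of 22 libraries for organ and 1 per organ for season and site, 15 comparisons in all. Standard errors are the absolute log2 fold change over the root of F. DESeq2 1.42.0, other scaling and filters, the tree as a block, and left-out libraries were alternatives. The fit was checked on simulated counts.

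Tree numbers come from the labels. Over pairs of libraries of the same tree in different groups, deviations from the group means correlated with a median r of 0.203 (30 pairs, 25 above 0.1, range -0.302 to 0.528), and over different trees of a site with -0.0972 (61 pairs, 10 above 0.1). Without the needles of tree 1, pairs of the same tree had a median r of 0.237 (25 pairs, 23 above 0.1, lowest -0.0401). Deviations cancel out within a group, so all these values are tied to each other. Those over different trees are no independent reference. Members named with each library's value were the 10 of highest mean CPM and, in each comparison, those called whose log2 fold change was 1 or larger in size, with 5 CPM or more as the mean of the higher group. The members and the lists were chosen with earlier results of these data known. P-values of the main fits measure the spread between libraries of different trees within a group. Those fits take no account of libraries that share a tree.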

Additional observations from a re-analysis of the deposited data

Results flagged for a closer look

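For 6 members the change from autumn to spring differed between needles and roots by a test of the difference itself (needles minus roots, log2 scale, edgeR with Benjamini-Hochberg adjustment). The differences were 8.47 for Gene_14319 and 7.84 for Gene_8620, the NIP5-1 hits, 12.24 for the PIP2-2 hit Gene_75899, 8.67 for the RB7-type TIP ap_3866, 1.36 for the PIP2-8 hit Gene_3516 and 1.33 for the PIP1-4 hit Gene_2961. The lowest of the 4 group means was 0.125 CPM for Gene_14319, 0.259 for Gene_8620, 0.412 for ap_3866 and 0.815 for Gene_75899, so these sizes depend on few reads. What lies behind these differences was not tested.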

How the results depend on the processing

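Another scaling and a filter of 1 CPM in 3 libraries left all 43 values of named members on the same side of the threshold. DESeq2 did so for the 40 to which it gave an adjusted p, none of them of Gene_75899. No direction reversed in any alternative run. With no filter 2 of 43 lost their call, as labelled 15 of 43, with the tree as a block 11 of 43, without both needle libraries of tree 1 3 of 41, and with block and without that tree's needles 4 of 41, an alternative chosen after seeing the data. Leaving out 1 library kept 399 of 493 and lost 94. Calls below the fold or level limit for named members are not among the 43. Of these, leaving out 1 library lost Gene_52233 for site in autumn needles in 6 of 6 fits. For organ in spring it lost Gene_3332 in 7 of 10 fits and Gene_26339 in 3 of 10, and it lost none of the others. The cause was not tested.

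With all libraries as labelled, the count of members called was 1 for organ in spring, 2 for season by organ and 0 for site in autumn needles. With the tree as a replicate block it was 3 for season by organ, 0 for season in needles at Ronda and 1 for season in roots. Without both needle libraries of tree 1 it was 5 for season in needles at Ronda, and with the block as well it was 8 there and 11 for season in needles. DESeq2 called 6 members for season in needles at Ronda, 7 for site in autumn needles, 4 for season in roots, 3 for season in roots at Yunquera, 2 for season in roots at Ronda and 1 for site in autumn roots. Leaving out 1 library gave 13 to 15 members for organ in autumn, 6 to 12 for organ in spring, 2 to 7 for season by organ, 5 to 8 for season in needles, 2 to 6 at Yunquera and 0 to 2 at Ronda. It gave 0 to 3 for season in roots, 0 to 1 for season in roots at Yunquera, and 0 to 0 for site in autumn needles and for the comparisons with no call. No block could be fitted for site, since each tree stands at 1 site.

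Counts were simulated with the same spread for every feature and no effect of tree. For season in needles, 41.1% of 95 features changed by 1 on the log2 scale were recovered and 96.9% of 96 changed by 2. Smaller changes can thus be missed at this depth and number of libraries. Features that vary more between trees than the simulated ones are not covered by these shares.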
